A study of Mus musculus with 6 samples.

Results

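Interferon regulatory factors were examined in cultured mouse fibroblasts after knockdown of *Yme1l*. These genes encode transcription factors that share a DNA-binding domain and bind interferon-stimulated response elements. The genes were taken from the count table by name, from 7 names: *Irf1*, *Irf2*, *Irf3*, *Irf4*, *Irf5*, *Irf7* and *Irf8*. Of these, 6 had a row among the 51499 loci, each under its own name alone, and *Irf8* was not analysed here. *Irf9*, which works as the DNA-binding subunit of the interferon-activated STAT complex, was left out of the set. The libraries came from WT MEFs, fibroblasts grown from mouse embryos, collected 72 h after transfection with Scr control siRNA or with Yme1l siRNA, 3 independent cultures each. The WT line carries loxP sites in both *Yme1l* alleles and, according to the methods, comes from individual clones expanded after immortalization with SV40 large T antigen and transduction with Cre recombinase, so both groups share this background. The labels call the cells 3T3 immortalized, and the source of this difference is not given. RNA was poly(A)-selected, made into stranded libraries and sequenced. The comparison asks how the transcripts of these factors differ when YME1L, a protease of the mitochondrial inner membrane, is depleted.

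As background, IRF3 and IRF7 are the factors through which nucleic acid sensors switch on interferon genes. IRF3 is made constitutively and waits in the cytosol until the kinase TBK1 or its relative IKKε phosphorylates it. IRF7 is scarce in resting fibroblasts, is itself an interferon-stimulated gene, and amplifies a response that has begun. IRF1 is an inducible activator of antiviral and antigen presentation genes, and IRF2 competes with IRF1 for the same elements, mostly as a repressor. IRF5 works downstream of Toll-like receptors in the induction of inflammatory cytokines, and IRF4 and IRF8 are known mainly from lymphocytes, macrophages and dendritic cells.

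The promoters of the 3 members below are shown because *Irf7* had the largest change of the set, and because *Irf1* and *Irf2*, which encode an activator and its competitor, were the members with motif matches. Each is the RefSeq sequence of build GRCm38.p6 from 250 bases before to 50 bases after the start, 5′ to 3′ on the strand of the gene, with motif matches in capitals. The *Irf1* window lies at chr11:53769764-53770063 on the plus strand, the *Irf2* window at chr8:46739495-46739794 on the plus strand and the *Irf7* window at chr7:141266375-141266674 on the minus strand.
Irf1: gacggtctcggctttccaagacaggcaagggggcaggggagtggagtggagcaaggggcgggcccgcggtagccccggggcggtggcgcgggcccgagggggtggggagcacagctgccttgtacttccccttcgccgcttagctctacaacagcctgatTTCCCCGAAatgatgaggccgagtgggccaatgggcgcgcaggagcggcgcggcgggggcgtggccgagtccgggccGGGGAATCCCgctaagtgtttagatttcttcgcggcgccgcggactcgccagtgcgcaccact
Irf2: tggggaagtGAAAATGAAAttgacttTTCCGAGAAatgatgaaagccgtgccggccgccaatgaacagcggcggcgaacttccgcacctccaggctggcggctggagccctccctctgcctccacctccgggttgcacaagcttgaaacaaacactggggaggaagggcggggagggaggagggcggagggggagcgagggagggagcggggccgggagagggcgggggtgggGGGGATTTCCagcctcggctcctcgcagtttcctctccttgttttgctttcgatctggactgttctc
Irf7: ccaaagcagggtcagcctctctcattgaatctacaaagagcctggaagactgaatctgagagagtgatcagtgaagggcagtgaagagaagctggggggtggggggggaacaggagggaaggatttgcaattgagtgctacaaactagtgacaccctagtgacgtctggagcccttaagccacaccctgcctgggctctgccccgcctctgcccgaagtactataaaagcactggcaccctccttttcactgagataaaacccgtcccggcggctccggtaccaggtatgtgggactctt

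Both strands of each window were searched for 3 motifs. The core of the interferon-stimulated response element, GAAANNGAAA, is what interferon regulatory factors and the STAT complex bind, and it was present in 3.44% of 32851 windows of the same length. The interferon-gamma activated site (GAS), TTCNNNGAA, is bound by STAT dimers and was found in 8.30% of the windows. The kappa-B consensus, bound by NF-kB, was found in 4.51%. The *Irf1* window held a GAS match from -90 to -82 and a kappa-B match from -13 to -4, counted in bases from the start. The *Irf2* window held all 3 motifs, with the response element core from -241 to -232, the GAS match from -224 to -216 and the kappa-B match from -17 to -8, and none of the matches overlapped. The GAS matches of *Irf1* and *Irf2* had 7 of 9 bases in common, most of them fixed by the search pattern itself. Both matches were followed by the same 7 bases, atgatga, which was seen only after the sequences had been read. Matches to the 3 motifs did not occur in the windows of *Irf3*, *Irf4*, *Irf5* and *Irf7*, or at a further annotated start of *Irf1*. Letters that match are a description of the window and not a site shown to be bound. The lack of a match to these strict patterns in a single window does not show that a gene lacks such an element.

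**Figure D1:**
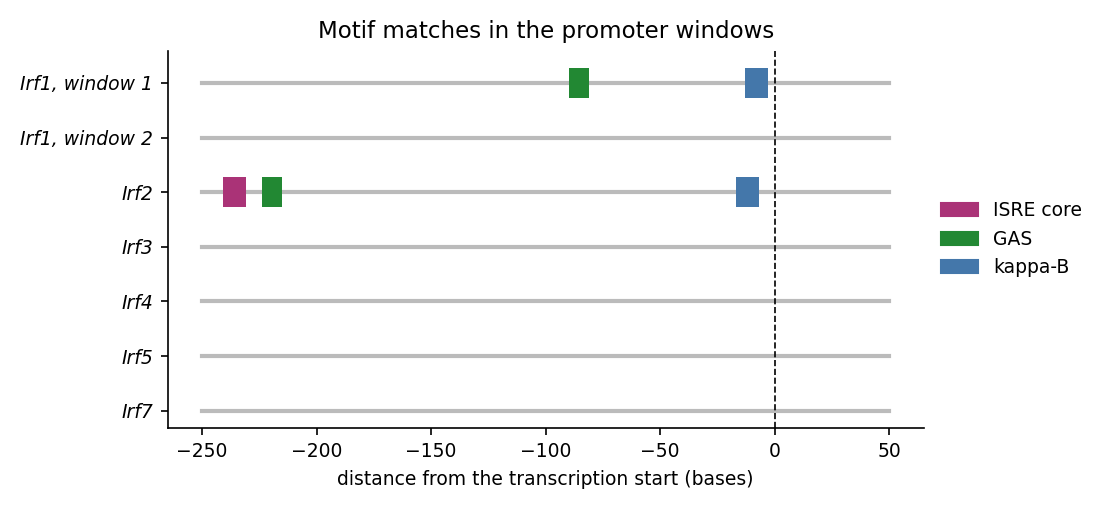
Positions of the motif matches in the promoter windows of the members, with the distance from the transcription start in bases on the horizontal axis and a row for each window. Coloured blocks are matches to the interferon-stimulated response element (ISRE) core, the GAS and the kappa-B consensus, and matches appear in the *Irf2* window and in window 1 of *Irf1*.

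The libraries held between 37260605 and 45205207 counts, and the 14499 loci that passed a filter on low counts were tested with edgeR's quasi-likelihood test, with adjusted p-values from the Benjamini-Hochberg method over all of them. Levels are given as CPM, counts relative to the size of the library after scaling with edgeR's TMM factors, and errors are SD over 3 cultures unless marked SE, which stands for the standard error of the fitted log2 value. *Yme1l1*, the siRNA target, was at 170.5, 171.3 and 170.6 CPM under Scr siRNA and at 31.6, 23.4 and 45.0 CPM under Yme1l siRNA, so every library matched its label. Its log2 fold change was -2.36 (SE 0.20, edgeR adjusted p = 3.87e-05). It was -2.64 without the third library of both groups (SE 0.12, edgeR adjusted p = 3.06e-07). Of 13 fibroblast markers, 11 were tested, and 10 of these were lower in Yme1l siRNA cultures, with summed levels of 34276 to 41512 CPM in Scr and 18487 to 22889 CPM in Yme1l siRNA libraries. Of 13 macrophage and dendritic cell markers, 5 were tested, of which *Csf1r* was called higher (0.74) and *Itgax* lower (-1.74), and their sums ranged from 193 to 209 CPM in Scr and from 273 to 286 CPM in Yme1l siRNA libraries. *Csf1r* made up most of these sums, with 109 to 134 CPM in Scr and 183 to 222 CPM in Yme1l siRNA libraries, *Cd68* (-0.13), *Cd14* (0.08) and *Lyz2* (-0.34) did not pass the test, and the defining markers *Adgre1* and *Tyrobp* had no count in any library. *Itgax* had 41, 37 and 13 counts under Scr siRNA and 7, 10 and 12 under Yme1l siRNA. It reached the filter only with its Scr libraries, so it could hardly have been called higher. Of 5 endothelial markers, 3 were tested and 2 were called higher, *Kdr* (2.57) and *Tek* (0.61), with sums of 3.79 to 4.08 CPM in Scr and 5.68 to 7.81 CPM in Yme1l siRNA libraries. *Kdr* had 3, 9 and 7 counts under Scr siRNA and 43, 43 and 38 under Yme1l siRNA, and it reached the filter only through the latter. None of the lymphocyte or epithelial markers had enough counts to be tested, and they summed to at most 0.203 and 0.529 CPM in any library. The part of these marker genes in the results for the factors was not tested. The third library of each group stood furthest from the other two of its group, at chi-square values over degrees of freedom of 49.8 to 76.3 in pairs that include one and of 10.3 and 28.3 in the pairs without, so the main values are also given without both. The tests measure the spread between cultures of a single knockdown treatment.

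Among the interferon regulatory factors, *Irf7*, *Irf1* and *Irf5* rose after *Yme1l* knockdown, *Irf2* and *Irf3* did not pass the test, and *Irf4* was too low to be tested. Of the 5 members tested, 3 were called higher and 0 lower, against 28.4% of all loci tested called higher and 29.6% called lower. The groups did not overlap for 4 of the 5, with Yme1l siRNA higher for *Irf1*, *Irf5* and *Irf7* and lower for *Irf3*, where 31.9% of all loci did not overlap in the higher direction and 33.6% in the lower. The median log2 fold change of the 5 members was 0.52, beside 0.01 for all loci tested. With 5 members and such a background, the counts by themselves set nothing apart, and the members are described one by one.

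*Irf7*, the amplifying factor, had the largest change of the members tested. It lies on chromosome 7 of GRCm38 from 141262706 to 141266481 (XLOC_042187, ENSMUSG00000025498) on the minus strand. The Scr libraries had 26.8, 19.3 and 7.09 CPM and the Yme1l siRNA libraries 162, 190.0 and 68.1 CPM. The groups were far apart, the lowest Yme1l siRNA library being 2.54-fold above the highest Scr library, although the third library was the lowest of its group in both. The mean rose from 17.7 ± 9.97 to 140.0 ± 63.8 CPM (mean ± SD of 3 cultures in each), which is 7.89-fold, and the log2 fold change was 2.98 (SE 0.50, edgeR adjusted p = 0.00114). Without the third library of both groups the log2 fold change was 2.92 (SE 0.14, edgeR adjusted p = 3.92e-07). The call held in all 6 fits that left out 1 library, with values from 2.59 to 3.41.

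*Irf3*, the constitutive partner of *Irf7*, moved in the other direction by a small amount that did not pass the test. It lies on the same chromosome, from 44997648 to 45002848 (XLOC_038617). Its level was 36.7, 35.2 and 41.8 CPM under Scr siRNA and 32.1, 32.5 and 34.3 CPM under Yme1l siRNA. All Yme1l siRNA libraries were thus below all Scr libraries, by little. The log2 fold change was -0.20 (SE 0.08, edgeR adjusted p = 0.0635), and among 15 other settings 1, the fit with the replicate number as a block, passed the threshold, with an adjusted p of 0.0410. The value was -0.16 without the third library of both groups (SE 0.08, edgeR adjusted p = 0.0985). *Irf3* shares 88 exon bases (2.56% of its exons) with *Bcl2l12* on the other strand, which itself fell by 0.56 on the log2 scale (SE 0.15, edgeR adjusted p = 0.0101), and whether reads were counted by strand is not stated.

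*Irf1*, the inducible activator (chromosome 11, 53770014 to 53778374, XLOC_006273), had the highest level per kb of exons in the Scr cultures and rose moderately. The Scr libraries had 65.7, 62.5 and 60.7 CPM and the Yme1l siRNA libraries 90.4, 111 and 72.4 CPM. All 3 Yme1l siRNA libraries exceeded the Scr range, and the Scr cultures were close to each other. The mean rose from 63.0 ± 2.53 to 91.3 ± 19.4 CPM (mean ± SD of 3 cultures in each), which is 1.45-fold, with a log2 fold change of 0.54 (SE 0.14, edgeR adjusted p = 0.00984). It was called in all 6 fits that left out 1 library, with values from 0.38 to 0.68, and was 0.65 without the third library of both groups (SE 0.10, edgeR adjusted p = 0.000331).

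*Irf2*, which encodes the competitor of IRF1 (chromosome 8, 46739732 to 46847458, XLOC_042731), had 26.4, 24.0 and 23.2 CPM under Scr siRNA and 28.0, 30.1 and 24.3 CPM under Yme1l siRNA. These groups overlapped. The log2 fold change of 0.16 did not pass the test (SE 0.10, edgeR adjusted p = 0.178), and leaving out the third Yme1l siRNA library gave 0.24 with an adjusted p of 0.0453. Leaving out the third library of both groups gave 0.20 (SE 0.09, edgeR adjusted p = 0.0685). The ratio of *Irf1* to *Irf2* counts, which sets the activator against the repressor within a library, was 2.49, 2.61 and 2.62 under Scr siRNA and 3.23, 3.69 and 2.97 under Yme1l siRNA. The ratio was higher in each Yme1l siRNA library than in any Scr library, by 0.35 on the log2 scale between the means (exact two-sided permutation test, p = 0.1, the smallest p that 3 cultures against 3 allow).

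*Irf5*, known for cytokine induction (chromosome 6, 29526625 to 29541871, XLOC_034842), had 21.5, 19.1 and 19.3 CPM under Scr siRNA and 29.4, 34.8 and 21.6 CPM under Yme1l siRNA. The groups touched without overlapping, the lowest Yme1l siRNA library being 1.01-fold above the highest Scr library. Its mean rose from 19.97 ± 1.31 to 28.6 ± 6.62 CPM (mean ± SD of 3 cultures in each), with a log2 fold change of 0.52 (SE 0.16, edgeR adjusted p = 0.0204). This call was the least stable of the 3, since 4 of the 6 fits with 1 library omitted did not make it: without Scr replicate 2 (0.48, adjusted p = 0.0700), Scr replicate 3 (0.49, adjusted p = 0.0603), Yme1l siRNA replicate 1 (0.50, adjusted p = 0.0594) or Yme1l siRNA replicate 2 (0.36, adjusted p = 0.0541). Without the third library of both groups it was 0.65 (SE 0.10, edgeR adjusted p = 0.000389). *Irf5* shares 411 exon bases, 14.1% of its exons, with *Tnpo3* on the other strand, which fell by 0.57 on the log2 scale (SE 0.09, edgeR adjusted p = 0.000849).

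*Irf4*, the lymphoid member (chromosome 13, 30749226 to 30766976, XLOC_011486), was near the limit of detection, with 4, 1 and 2 counts under Scr siRNA and 18, 11 and 4 counts under Yme1l siRNA. It did not pass the filter on low counts. Summed over the cultures, 7 counts stood against 33, a ratio of 4.41 after scaling (95% exact interval 1.92 to 11.8, which covers counting error only). When every locus with at least 1 count was tested, its log2 fold change was 2.08 (SE 0.70, edgeR adjusted p = 0.0262). *Irf4* also passed the usual filter in 5 fits on fewer libraries, which differ from that fit in both the filter and the libraries. In these 5 fits it reached the filter only through its Yme1l siRNA libraries, so it could hardly have been called lower. It was called without Scr replicate 1 (2.63, adjusted p = 0.0395), without Yme1l siRNA replicate 3 (2.46, adjusted p = 0.00725) and without the third library of both groups (2.34, adjusted p = 0.0159). It was not called without Scr replicate 2 (1.80, adjusted p = 0.0918) or Scr replicate 3 (1.96, adjusted p = 0.0859). In bulk RNA, fewer cells expressing a gene and less RNA per cell cannot be told apart.

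**Figure D2:**
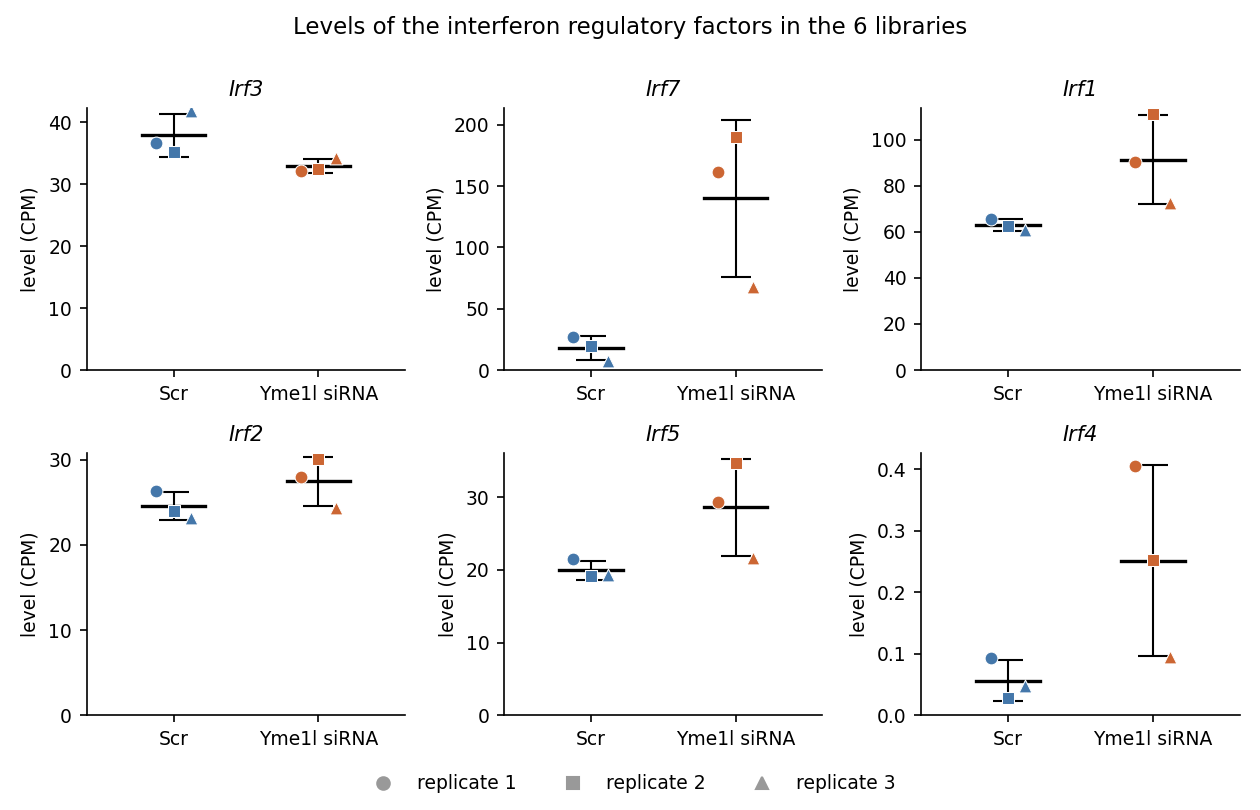
Level of each member in CPM (vertical axes, each starting at 0) in the 3 Scr and 3 Yme1l siRNA libraries, with points for libraries, horizontal bars for means and error bars for the SD. The *Irf7* points of the Yme1l siRNA group lie between 68.1 and 190.0 CPM, above Scr points between 7.09 and 26.8, and the *Irf2* groups overlap.

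**Figure D3:**
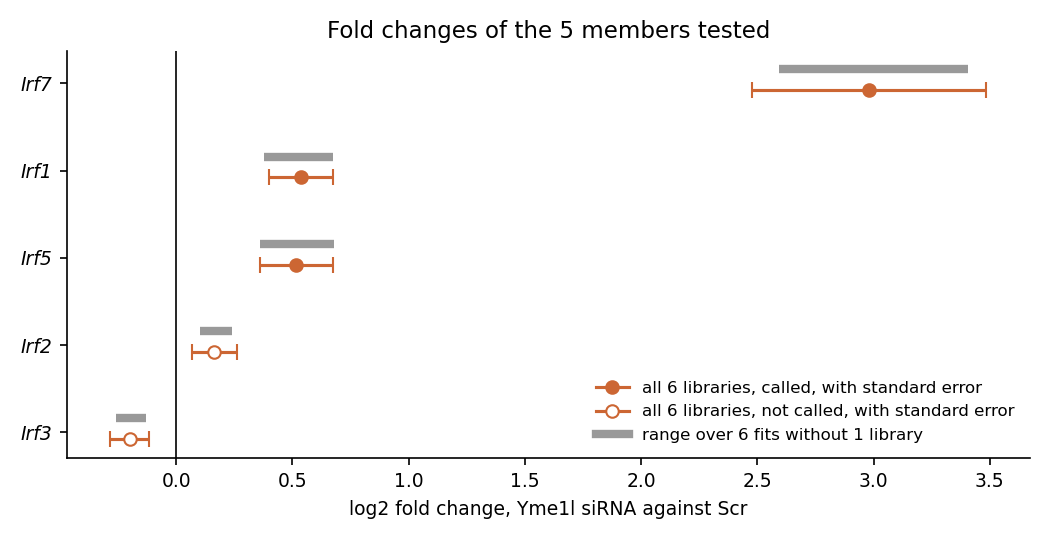
Log2 fold change of the 5 members tested, Yme1l siRNA against Scr, with the standard error from edgeR as error bars and the range over 6 fits that each left out 1 library as grey bars. *Irf7* stands at 2.98, *Irf1* and *Irf5* near 0.5, and open circles mark *Irf2* and *Irf3*, which were not called.

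To compare members with each other, levels were divided by the length of all their annotated exons in kb. The longest transcript is shorter, 2137 against 3976 bases for *Irf1* and 3240 against 3776 for *Irf7*. The order of members close to each other therefore depends on the length chosen. In the Scr cultures the order was *Irf1* (15.8 ± 0.636 CPM per kb), *Irf3* (11.01 ± 1.00), *Irf5* (6.88 ± 0.451), *Irf7* (4.70 ± 2.64), *Irf2* (3.32 ± 0.222) and *Irf4* (0.0114 ± 0.00676) (SD, n = 3 each). *Irf7* could not be placed firmly there, since its range overlapped those of *Irf5* and *Irf2*. In the Yme1l siRNA cultures *Irf7* came first at 37.1 ± 16.9 CPM per kb, followed by *Irf1* (23.0 ± 4.88), *Irf5* (9.84 ± 2.28), *Irf3* (9.58 ± 0.338), *Irf2* (3.71 ± 0.393) and *Irf4* (0.0512 ± 0.0317) (SD, n = 3 each). The ranges of *Irf7* and *Irf1* overlapped, with *Irf7* the higher in 2 of the 3 libraries, as did those of *Irf5* and *Irf3*.

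The summed level of the 6 genes was 45.3, 40.9 and 39.1 CPM per kb under Scr siRNA and 88.9, 104 and 56.9 CPM per kb under Yme1l siRNA, a ratio of 1.99 between the means. Without *Irf7* the ratio was 1.25, so most of the added level was *Irf7*. *Irf7* made up 15.7%, 12.5% and 4.80% of the sum under Scr siRNA and 48.2%, 48.5% and 31.7% under Yme1l siRNA. Its mean share was higher by 31.8 percentage points under Yme1l siRNA. With the longest transcript as length the difference was 26.2 points, and without a length 31.3 points. The share of *Irf3* was 26.5% ± 3.99 in Scr and 12.4% ± 4.50 in Yme1l siRNA cultures (SD, n = 3 each). *Irf1* went from 38.01% ± 1.33 to 28.2% ± 3.36, although its level was higher, since shares of a sum are tied to each other. The share of each of *Irf1*, *Irf2*, *Irf3*, *Irf5* and *Irf7* did not overlap between the groups (exact two-sided permutation test, p = 0.1 each, 0.12 after Benjamini-Hochberg adjustment over the 6 members). The ratio of *Irf7* to *Irf3* counts, the inducible against the constitutive factor, was 0.732, 0.548 and 0.170 under Scr siRNA and 5.04, 5.84 and 1.98 under Yme1l siRNA, and per kb as well *Irf3* was the higher in every Scr library and *Irf7* in every Yme1l siRNA library. The means differed by 3.25 on the log2 scale (exact two-sided permutation test, p = 0.1), by 2.62 without Scr replicate 3 and by 2.95 to 3.73 without any other single library.

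**Figure D4:**
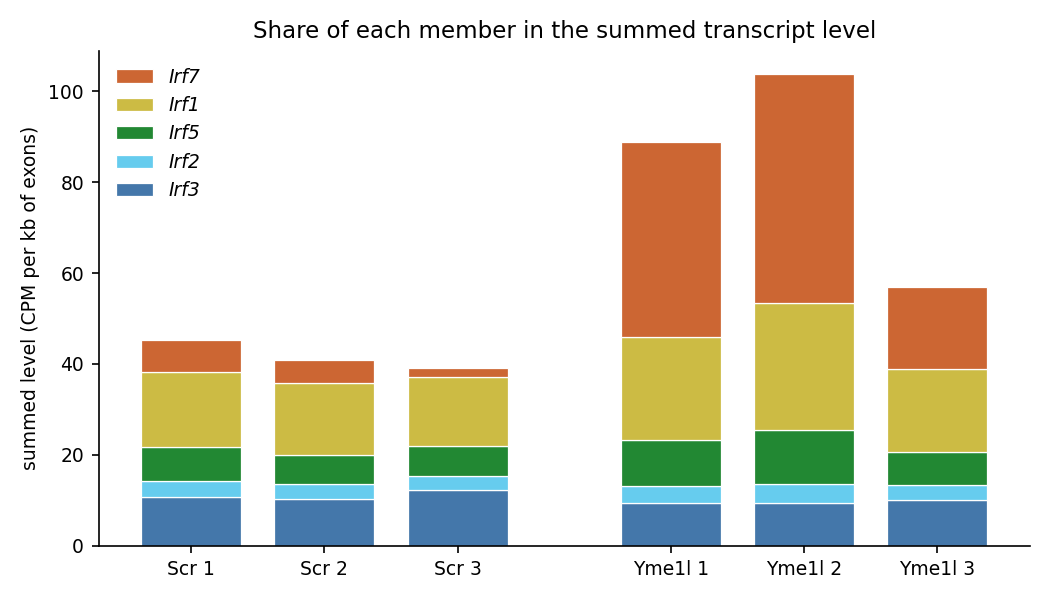
Summed level of the interferon regulatory factors in CPM per kb of exons (vertical axis) in each library, split by member, with *Irf4* too low to be drawn. The bars of the Yme1l siRNA libraries reach 88.9, 104 and 56.9, and *Irf7* fills between 31.7% and 48.5% of each, against at most 15.7% in the Scr libraries.

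The genes whose profiles over the 6 libraries were nearest to each member were found by the root mean square difference of centred log2 CPM values, so a smaller number is a closer match. *Irf7* was nearest to *Gbp3* (0.10), an interferon-inducible GTPase, *Psmb8* (0.12), a subunit of the immunoproteasome, and *Cmpk2* (0.14), a nucleotide kinase induced by interferon. *Irf1* and *Irf5* were near each other (0.05), and both were also near *Grina*, at 0.03 from *Irf1* and 0.05 from *Irf5*. *Irf5* was nearest of all to *Isg20* (0.03), an interferon-induced RNA exonuclease, and *Acacb* (0.04) completed the 3 nearest to *Irf1*. The nearest to *Irf2* were *Tob1*, *Gps2* and *Zfp787* (0.02 to 0.03), and the nearest to *Irf3* were *Rab11fip3*, *Tns2* and *Ctc1* (0.02 to 0.03), none of them in the lists of interferon pathway genes used here. The distance between *Irf7* and *Irf3* (1.81) was the greatest of any pair of members. These are distances in 6 libraries that fall into 2 groups, and a difference between the groups makes up much of each profile.

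Genes that act around these factors were followed in lists drawn from background knowledge, with earlier results of these data known. Each count is to be read against all loci tested, of which 28.4% were called higher and 29.6% lower, with a median log2 fold change of 0.01. Of 20 genes for the activation of IRF3 and IRF7 that were tested, 9 rose, 3 fell and 8 did not pass the test, with a median log2 fold change of 0.23. *Mb21d1*, which encodes the cytosolic DNA sensor cGAS, went from 19.3 ± 1.51 to 54.1 ± 6.00 CPM (mean ± SD of 3 cultures in each), a log2 fold change of 1.49 (SE 0.10, edgeR adjusted p = 1.46e-05). *Chuk*, which encodes IKKα, rose by 0.57 (edgeR adjusted p = 0.000312). The 3 that fell were *Irak4*, a kinase downstream of Toll-like receptors (-1.02), *Ticam1*, the adaptor of Toll-like receptor 3 (-0.65), and *Azi2*, an adaptor of TBK1 (-0.45), with adjusted p-values of 8.67e-05, 9.93e-05 and 0.000596 from edgeR. The kinases that phosphorylate IRF3 were looked up after their values were known. *Tbk1* rose from 49.6 ± 1.13 to 65.4 ± 3.47 CPM (log2 fold change 0.40, SE 0.07, edgeR adjusted p = 0.00102), and *Ikbke* had a log2 fold change of -0.18 that did not pass the test (edgeR adjusted p = 0.0775).

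Of 15 genes known to restrain interferon regulatory factors or their output, 7 rose, 4 fell and 4 did not pass the test, with a median log2 fold change of 0.10. *Eif4ebp1*, whose product represses translation, including that of *Irf7* mRNA, rose from 89.7 ± 2.40 to 172 ± 9.89 CPM (mean ± SD of 3 cultures in each, log2 fold change 0.94, SE 0.07, edgeR adjusted p = 2.17e-05). *Tnfaip3*, which encodes the deubiquitinase A20, rose by 1.79 (adjusted p = 0.000145) and *Trim30a*, an interferon-inducible TRIM gene, by 2.65 (adjusted p = 0.000663, both from edgeR). In the other direction were *Irf2bpl*, a relative of the IRF2-binding corepressors (-0.54), *Socs3*, an inhibitor of cytokine receptor signalling (-0.48), *Foxo3*, a repressor of *Irf7* transcription (-0.33), and *Ube3c*, a ubiquitin ligase for IRF3 and IRF7 (-0.28), with adjusted p-values from 0.000325 to 0.0310 from edgeR.

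Of the factors that bind composite DNA elements together with interferon regulatory factors, 10 loci were tested, of which 2 rose, 2 fell and 6 did not pass the test, with a median of 0.12. In each direction this was a smaller share than the 28.4% and 29.6% of all loci, so the list does not stand out by its calls. *Nfkb1*, a subunit of NF-kB (0.28), and *Jun*, a subunit of AP-1 (0.32), rose, while *Ets1* (-0.27) and *Tcf3* (-0.22), factors of the ETS and E protein families, fell, with adjusted p-values from 0.00631 to 0.0473 from edgeR. *Spi1*, the myeloid ETS factor with which IRF4 and IRF8 pair, had no count in the Scr libraries and 2, 2 and 1 counts under Yme1l siRNA. Apart from *Nfkb1*, the calls lay near the threshold, and both counts changed with the settings tried.

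The genes on which the factors act include many that the STAT complex also drives, and a few, such as *Ifnb1*, stand in more than one list. Of 18 target genes of IRF3 and IRF7, 17 were tested and all 17 of these rose, with a median log2 fold change of 2.80. Among them, *Ifnb1* and *Tnfsf10* reached the filter on low counts only with their Yme1l siRNA libraries, so they could hardly have been called lower. Between 15 and 17 of the 17 genes were called in the fits without 1 library. *Oasl1*, a regulator of *Irf7* translation, rose from 1.02 ± 0.432 to 21.1 ± 9.12 CPM (mean ± SD of 3 cultures in each, log2 fold change 4.37, SE 0.43, edgeR adjusted p = 6.83e-05). *Cxcl10*, a chemokine for T cells, rose by 3.04, *Rsad2*, the antiviral enzyme viperin, by 3.30, and *Usp18*, the ISG15 protease, by 2.99, with adjusted p-values of 9.46e-05, 0.000264 and 0.000334 from edgeR. The summed level of the 17 genes was 522, 404 and 232 CPM under Scr siRNA and 2292, 2694 and 1084 CPM under Yme1l siRNA. These libraries stood in the same order as for *Irf7*, with the third library the lowest of its group in both. The summed levels of the other target lists below showed the same order of libraries, so it is not particular to these genes. *Ifnb1*, the interferon that both factors switch on, had 3, 1 and 0 counts under Scr siRNA and 37, 60 and 11 counts under Yme1l siRNA, in all 4 against 108, a ratio of 25.3 (95% exact interval 9.58 to 94.4, counting error only), with an adjusted p of 0.00233 from edgeR. Its fitted log2 fold change of 4.53 varied with single libraries, moving to 5.71 without Scr replicate 1, to 3.96 without Scr replicate 3 and to 3.96 without Yme1l siRNA replicate 2, although it was called in all 6 such fits. It was the only one of 21 interferon genes with enough counts to be tested, and it had them only in the Yme1l siRNA libraries. *Ifna4*, which the same factors drive, had no count in the Scr libraries and 4, 6 and 1 counts under Yme1l siRNA.

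Of the target genes of IRF1, 24 were tested, of which 19 rose, 1 fell and 4 did not pass the test, with a median log2 fold change of 1.30. Among those that rose, *Nos2* reached the filter on low counts only with its Yme1l siRNA libraries. *Ptgs2*, which encodes cyclooxygenase-2, rose from 9.24 ± 0.506 to 58.4 ± 8.60 CPM (mean ± SD of 3 cultures in each, log2 fold change 2.66, SE 0.12, edgeR adjusted p = 3.60e-06). *Cd274*, which encodes the immune checkpoint ligand PD-L1, rose by 2.42 (edgeR adjusted p = 0.000365). The locus that holds *Gbp6*, an interferon-inducible GTPase, rose by 3.00 (adjusted p = 0.000173) and that of *Tgtp1*, an immunity-related GTPase, by 4.03 (adjusted p = 0.000502, both from edgeR), but each joins the names of further genes, so their counts cannot be assigned to a single gene. The one that fell was *Il7*, a lymphocyte growth factor, from 2.69 ± 0.144 to 1.17 ± 0.302 CPM (log2 fold change -1.19, SE 0.23, edgeR adjusted p = 0.00220).

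Most target genes of the lymphoid and myeloid members were barely detected, and 5 of the 17 names of IRF4, IRF5 and IRF8 targets were tested. Of these, 4 rose and 1 did not pass the test, with a median of 1.08. *Ccl4* and *Il6* reached the filter on low counts only through their Yme1l siRNA libraries, so they could hardly have been called lower. The inflammatory genes among them started from a few counts: *Ccl4* had 5 counts over the Scr libraries and 253 over the Yme1l siRNA libraries, a ratio of 47.3 (95% exact interval 20.02 to 147), and *Il6* had 9 and 91 counts, a ratio of 9.46 (4.77 to 21.3, counting error only). *Klf4*, a factor downstream of IRF8 in monocytes, rose by 1.08 (adjusted p = 0.000181) and *Csf1r*, the receptor for macrophage colony-stimulating factor, by 0.74 (adjusted p = 0.000431, both from edgeR). *Csf1r* stands in the list of macrophage and dendritic cell markers as well.

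**Figure D5:**
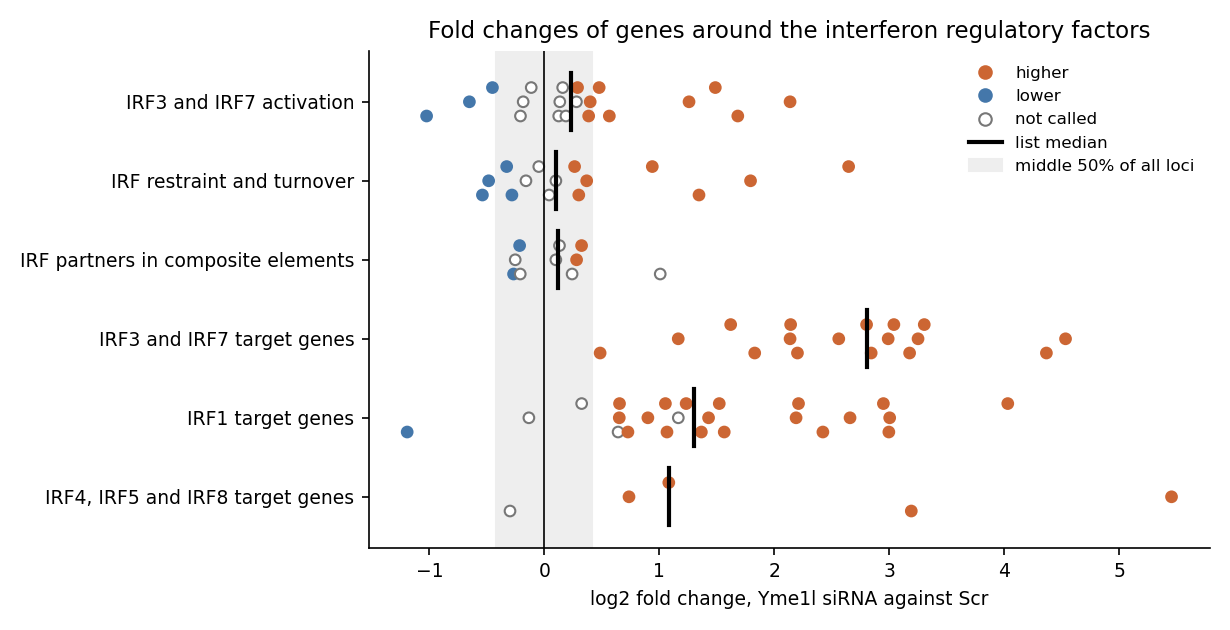
Log2 fold change, Yme1l siRNA against Scr, of each tested gene of the lists around the interferon regulatory factors, with a row for each list, filled circles for genes called higher or lower, open circles for genes not called and black bars for list medians. All 17 IRF3 and IRF7 targets are to the right of 0, with a median of 2.80, while the activation and restraint lists lie on both sides.

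The response element core found in the *Irf2* promoter was also looked for in the promoter windows of all tested loci with a single name, of which 9804 had a window. Among the 9441 loci without the core, 28.3% were called higher, with a median log2 fold change of -0.03. Of 329 loci with 1 core, 40.4% were called higher, with a median of 0.12, and of 34 loci with 2 or more cores 58.8%, with a median of 0.98. Of the loci with a GAS match 27.5% of 803 were called higher, and of those with a kappa-B match 30.0% of 636, beside 28.8% of all 9804 loci. These shares are descriptions, without a test.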

How the data were processed

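RNA-Seq counts of 3 Scr and 3 Yme1l siRNA cultures were used. Per the submitters' processing notes, the authors used HISAT2 2.0.4, StringTie 1.3.3, Cufflinks and Cuffdiff 2.2.1 with build GRCm38. The authors deposited raw counts per locus without normalization. The counting program and its use of strand are not given in the sources used here. A table with the authors' group FPKM levels, fold changes, test statistics, p-values and q-values was not used.

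Of 51499 loci, 14499 passed filterByExpr in edgeR 4.0.16 (minimum count 10, minimum total 15; R 4.3.3). TMM factors and the quasi-likelihood test without covariates were used, with a Benjamini-Hochberg threshold of 0.05. A standard error is the log2 fold change divided by the square root of F. Libraries held 37260605 to 45205207 counts, and the biological coefficient of variation was 0.131. No 2 libraries of a group agreed within sampling noise. Permutation tests were exact and two-sided. Exon lengths came from GENCODE M21 and promoters from RefSeq, which held all 6 members. Nearest profiles used log2 CPM with a prior count of 2. The edgeR fit with its main settings was tested on simulated data.

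Members and lists were chosen with earlier results of these data known. The genes named were the members, *Yme1l1*, *Ifnb1*, in each list the 4 genes of smallest adjusted p, called genes opposite to their list's median, and the 3 loci nearest to each member. *Tbk1*, *Ikbke*, *Spi1* and *Ifna4* were added after their values were seen. Alternatives were DESeq2 1.42.0, limma-voom (limma 3.58.1), other scale factors, filters and thresholds, the fit with replicate blocks, and the omission of single libraries. Leaving out the third library of both groups was chosen after seeing the data. Python 3.11.15 with pandas 2.3.3, numpy 2.4.6, scipy 1.17.1 and matplotlib 3.10.9 made the tables and figures.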

Additional observations from a re-analysis of the deposited data

How the results depend on the processing

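*Irf7* and *Irf1* were called higher under every alternative tried. In fits that left out 1 library, log2 fold changes ranged from 2.59 to 3.41 for *Irf7*, 0.38 to 0.68 for *Irf1*, 0.36 to 0.68 for *Irf5*, 0.10 to 0.24 for *Irf2*, -0.26 to -0.13 for *Irf3* and -2.64 to -2.15 for *Yme1l1*. *Irf4* passed the filter without Scr replicate 1, 2 or 3 and without Yme1l siRNA replicate 3. These fits tested 6 members and the others 5. Members called higher numbered between 2 and 5, with the 5, *Irf4* among them, reached without Yme1l siRNA replicate 3. *Irf2* passed the threshold only there, at 0.24. *Irf5* was not called at an adjusted p under 0.01 (log2 fold change 0.52). With the replicate number as a block, *Irf3* was called lower at -0.20, so that 1 member was lower, and the *Irf7* value was 3.04 (standard error 0.15). Same-numbered libraries deviated together with correlations of 0.04, 0.12 and 0.19, Scr 1 correlated best with Yme1l siRNA 2 (0.09), and the numbers were not taken to pair the cultures.

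Among the IRF partners, 4 were higher with library totals only or the replicate block and 1 at an adjusted p under 0.01. Of these partners, 1 was lower with RLE factors, upper-quartile factors, the filter of at least 1 count, the mean of at least 50 counts or the replicate block, and 0 with library totals only or at an adjusted p under 0.01. Leaving out 1 library gave 1 to 3 partners higher and 1 to 3 lower, 1 to 2 IRF1 targets lower and 0 to 1 IRF4, IRF5 and IRF8 targets lower. Of the last list, 1 was lower with the replicate block and 1 without the third library of both groups, and 2 were higher at a mean of at least 50 counts. Of the interferon genes, 2 were higher at 1 count or more and 0 at a mean of 50. In these 2 filters the number of genes tested differs, and the cause of the other changes was not tested. No result reversed. Depth limits *Irf4*, *Ifnb1*, *Ccl4* and *Il6*, whose Scr libraries held at most 5 counts.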
